A study of Mus musculus with 48 samples.

Results

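Potassium channel genes were examined in the dentate gyrus of mice in the first 2 weeks after status epilepticus (SE). All protein-coding genes whose mouse symbol begins with Kcn were taken from the count table, and a gene was kept where it had at least 10 counts in at least 4 libraries. Of 94 such genes, 80 were kept, out of 55357 genes in the table and 21390 genes that entered the test. All 80 passed the low-count filter of the test. They comprised 28 voltage-gated pore subunits, 13 auxiliary subunits and regulators, 12 inward rectifiers, 10 genes of the 2-pore leak channels, 9 modifier subunits and 8 calcium- or sodium-activated channels. The other 14 did not reach the minimum and had at most 18 counts in any library. These were Kcna7, Kcna10, Kcne1, Kcne2, Kcne3, Kcnj1, Kcnj13, Kcnj15, Kcnk7, Kcnk15, Kcnk16, Kcnk18, Kcnmb3 and Kcnv2.

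Wild-type C57BL/6J mice, given as 6 to 8 weeks old in the deposited design text, received an injection of kainate or of saline into 1 hippocampus. Kainate is a glutamate receptor agonist that induces SE, and per the study's methods kainate mice were included only after behavioural seizures were seen. The dorsal dentate gyrus of the injected side, named the epileptogenic zone (EZ), and that of the other side, named the peri-ictal zone (PIZ), were dissected 3, 7 or 14 days later and sequenced as polyA RNA. This gave 12 groups of 4 mice, with 2 male and 2 female mice per group and both regions from each of the 24 mice, in 48 libraries. The study's methods give an older age range than that text. Saline mice underwent the same injection, and neither sex nor seizure burden was available per library.

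Potassium channels let potassium leave the cell and thereby bring the membrane back towards rest. Voltage-gated pores end action potentials and limit repetitive firing, calcium- and sodium-activated channels shape the afterhyperpolarisation, and inward rectifiers and 2-pore leak channels hold the resting potential and, in glia, take up potassium released by active neurons. Modifier subunits form no channel alone but change the channels they join, and auxiliary subunits alter the trafficking and kinetics of the pores. Dentate granule cells are known for a negative resting potential and sparse firing, and inherited variants of several of these genes, among them Kcna1, Kcnq3 and Kcnt1, cause epilepsy.

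Library totals ranged from 17762656 to 25712975 counts, with a median of 22108562.5, and 0 pairs of libraries held identical values. Values per library are CPM, counts relative to the library's total after scaling by trimmed mean of M-values (TMM) factors. Genes were compared with edgeR's quasi-likelihood test over all 48 libraries, and a gene was called differentially expressed (DEG) where its p, adjusted by Benjamini-Hochberg, was under 0.01 and its fold change exceeded 1.5. Upregulated and downregulated are used for DEG alone. Some libraries stood apart from others of their group. The EZ library of kainate mouse 27 at day 14 had a median change over the 80 genes of -0.48 on the log2 CPM scale against its saline group, compared with -0.09, -0.04 and -0.09 in mice 14, 36 and 40. At day 7 in the EZ, kainate mice 21 and 35 had medians of -1.08 and -1.01, and mice 23 and 26 had -0.10 and -0.28. In bulk tissue, fewer cells of a type and less RNA per cell cannot be told apart.

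Levels in the 24 saline libraries spanned several orders of magnitude when expressed as CPM per kilobase of exon (RPKM). The highest mean was that of Kcnab2, a cytoplasmic subunit of the Kcna channels, at 70.8 ± 7.07 RPKM (SD, n = 24 libraries from 12 mice). It was followed by Kcnip2, a calcium-binding partner of the Kcnd channels, at 55.3 ± 3.51. Among the next were the 2-pore channel Kcnk1 at 42.8 ± 7.19, the G protein-gated Kcnj3 at 36.5 ± 3.72 and the glial inward rectifier Kcnj10 at 34.4 ± 5.87, and these last 2 differed by less than their spread. The A-type pore Kcnd2 had 27.6 ± 3.71 and Kcnq3 had 22.9 ± 2.31. Among other subfamilies, the leading genes included Kcna1 at 18.8 ± 1.70, Kcnma1 at 15.9 ± 1.88, Kcnh3 at 11.4 ± 1.84, Kcnf1 at 11.4 ± 1.83, Kcns2 at 9.18 ± 1.40, Kcng1 at 9.12 ± 1.16, Kcnv1 at 6.29 ± 1.27, Kcnmb4 at 5.87 ± 0.729, Kcnt2 at 4.08 ± 0.454, Kcnn2 at 3.46 ± 0.488, Kcne5 at 2.27 ± 0.722, Kcnu1 at 0.899 ± 0.159 and Kcnrg at 0.196 ± 0.0534 RPKM. The lowest means were those of Kcnn4 at 0.0148 ± 0.00788 and Kcnk5 at 0.0508 ± 0.0293 RPKM. These 2 genes reached 10 counts in 9 and 10 libraries respectively, all of them from kainate mice (0 saline libraries for either), so they were kept only through the groups in which they were high.

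After SE induction, potassium channel genes in the EZ were more often downregulated than upregulated, while the reverse held over all genes. At day 3, 12 of the 80 genes were upregulated and 29 were downregulated, or 15% and 36.2%, compared with 16.1% and 8.61% of all genes tested. At day 7, 13 were upregulated and 35 downregulated, or 16.2% and 43.8%, compared with 20.6% and 11.9% of all genes. The median log2 fold change over the 80 genes was -0.19 at day 3 and -0.54 at day 7, whereas the medians over all genes tested were 0.03 and 0.01. The median absolute log2 fold change was 0.82 and 0.94, against 0.40 and 0.48 over all genes. All 4 kainate libraries lay below all 4 saline libraries for 31 genes at day 3 and 35 at day 7, and above them for 12 genes on each day. Over all genes tested those shares were 18.5% and 20.1% below and 23.9% and 23.7% above. The mice of day 3 and day 7 were different animals, and 12 of the 12 upregulated and 28 of the 29 downregulated genes of day 3 were DEG in the same direction at day 7. These were 92.3% of the upregulated and 80% of the downregulated genes of day 7, and 0 genes were called in opposite directions. Over all genes tested, 84.6% of the upregulated and 76.8% of the downregulated genes of day 3 were called again at day 7. These were 66% of the upregulated and 55.5% of the downregulated genes of day 7. The 12 and 13 upregulated genes include Kcnn4 and Kcnk5, which the minimum count let in through kainate libraries alone, and without them 10 and 11 of 78 genes were upregulated. Leaving out 1 mouse at a time kept 30 of the 41 calls of day 3 and 38 of the 48 of day 7 in every fit. With the 8 libraries compared fitted alone, 34 genes were called at day 3 and 22 at day 7. Among the day 7 calls that fit ended were those of Kcna2, Kcna5, Kcnab1, Kcnab2, Kcnc1, Kcnd2, Kcnip2, Kcnip3, Kcnk13, Kcnmb4, Kcnq3 and Kcnt2, with adjusted p between 0.0112 (Kcnip3 and Kcnt2) and 0.0722 (Kcnab1). Of 6 general neuronal markers, 4 were downregulated at day 3 and 5 at day 7. Their summed level was 1237 to 2414 CPM in kainate and 3336 to 4349 CPM in saline mice at day 3, and 932 to 2235 CPM against 3449 to 4709 CPM at day 7. The part of these markers in the lower channel genes was not tested. Tested against a fold change of 1.5 rather than 1 (glmTreat), 18 genes remained at day 3 and 29 at day 7.

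**Figure D1:**
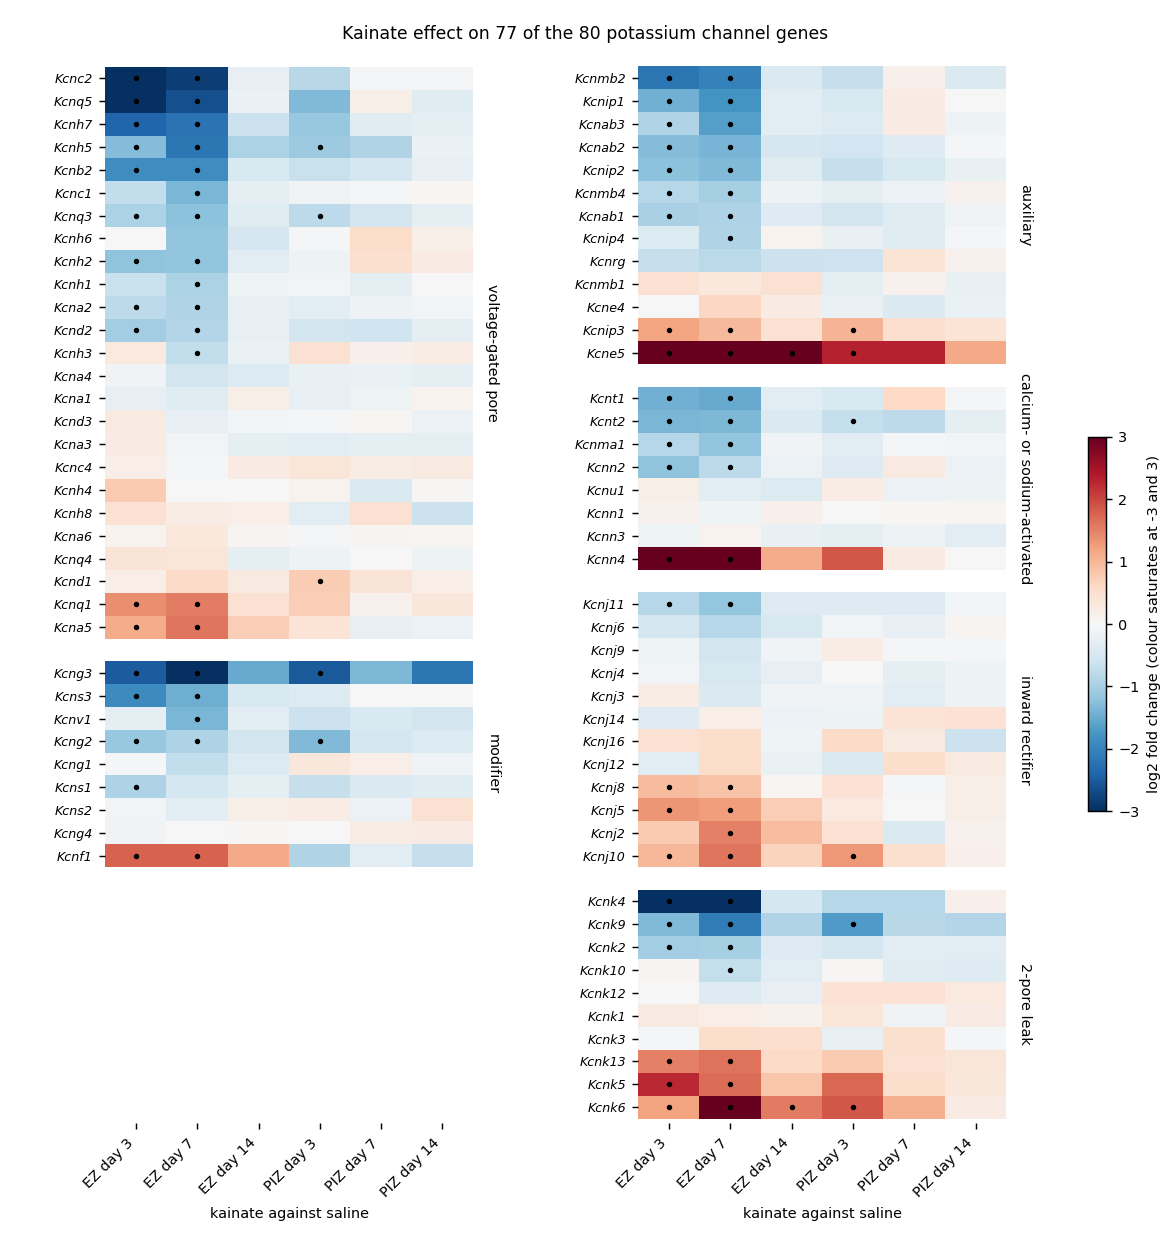
Log2 fold change of kainate against saline for 77 of the 80 potassium channel genes (rows, by kind of channel) in the 6 combinations of region and day (columns), with a dot where the gene was called. Blue fills most of the first 2 columns for voltage-gated pores, modifiers, auxiliary subunits and calcium- or sodium-activated channels, and the columns of EZ day 14, PIZ day 7 and PIZ day 14 hold 2, 0 and 0 dots.

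Of the 28 voltage-gated pores, 10 were downregulated (35.7%) and 2 upregulated (7.14%) in the EZ at day 3, beside 8.61% and 16.1% of all genes, and 14 and 2 at day 7, beside 11.9% and 20.6%. The smallest p belonged on both days to Kcnb2 (ENSMUSG00000092083.5, chr1:15356816-15793974 in GRCm39), a delayed rectifier pore. At day 3 Kcnb2 read 8.88, 6.93, 7.87 and 11.8 CPM in kainate mice 30, 38, 42 and 44, and 33.1, 31.7, 29.97 and 33.5 CPM in saline mice 18, 29, 37 and 41. At day 7 it read 5.76, 14.3, 14.0 and 6.35 CPM in kainate mice 21, 23, 26 and 35, and 42.3, 37.2, 29.5 and 38.7 CPM in saline mice 20, 33, 34 and 89. The groups did not overlap on either day, and mice 21 and 35 were the lowest at day 7. Kcnb2 was 3.62-fold lower at day 3 (log2 fold change -1.86, SE 0.22, adjusted p = 6.69e-08) and 3.66-fold lower at day 7 (-1.87, SE 0.22, adjusted p = 3.32e-08).

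Kcnh5, an ether-a-go-go type pore, had 2.72, 2.18, 2.79 and 1.81 CPM in the kainate mice of day 3 and 5.87, 5.81, 6.23 and 5.51 CPM in their saline group. At day 7 Kcnh5 had 0.98, 1.89, 1.599 and 1.49 CPM against 7.35, 6.56, 6.14 and 6.69 CPM. The groups were apart on both days, with log2 fold changes of -1.30 ± 0.29 (SE, adjusted p = 0.000425) at day 3 and -2.17 ± 0.31 (adjusted p = 3.37e-07) at day 7. The M-current gene Kcnq3, whose channels restrain repetitive firing, fell on both days. Kcnq3 went from 311 to 372 CPM in saline mice of day 3 to 176, 132, 171 and 218 CPM in kainate mice, and at day 7 it had 88.5, 212, 181 and 87.6 CPM against 365, 325, 337 and 312 CPM. No kainate library of either day reached a saline library for Kcnq3, and mice 21 and 35 had less than 23 and 26. On the log2 scale Kcnq3 changed by -0.94 ± 0.19 (SE, adjusted p = 0.000136) and by -1.24 ± 0.19 (adjusted p = 1.77e-06). Another M-current gene, Kcnq5, singled out like Kcnc2 for the size of its change after the values were seen, had 5.33 ± 2.58 CPM in kainate and 49.9 ± 21.6 CPM in saline mice at day 3 (SD, n = 4 each), a log2 fold change of -3.23 (adjusted p = 6.83e-05). Its saline libraries alone spanned 32.2 to 81.3 CPM.

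Within the Kcnc family, which serves fast firing and marks many inhibitory interneurons, Kcnc2 had the lowest log2 fold change of all 80 genes at day 3. Its mean was 5.92 ± 7.61 CPM in kainate and 61.8 ± 9.47 CPM in saline mice (log2 fold change -3.40, SE 0.59, adjusted p = 1.42e-05), and at day 7 it was 9.30 ± 5.92 and 66.2 ± 12.8 CPM (-2.83, adjusted p = 6.07e-05). The kainate mean of day 3 included a library at 17.3 CPM and others down to 1.42 CPM. Kcnc1 was a DEG at day 7, at -1.37 (SE 0.26, adjusted p = 3.29e-05), and Kcnc4 on neither day, at 0.21 and -0.07. Among dendritic and axonal pores, Kcnd2 had log2 fold changes of -1.04 and -0.88 (adjusted p = 2.95e-05 and 0.000142) and Kcna2 of -0.78 and -0.90 (adjusted p = 3.95e-05 and 2.91e-06). Kcna1, the axonal pore of the same family as Kcna2, had -0.25 and -0.36 (adjusted p = 0.157 and 0.034) and was not a DEG. The pores upregulated on both days were Kcnq1 (1.40 and 1.52) and Kcna5 (1.11 and 1.598), both better known from heart and blood vessels, at 0.0881 and 0.549 RPKM in saline mice. The day 3 call of Kcna5 was lost without kainate mouse 38, 42 or 44 or saline mouse 18, 29 or 37 (adjusted p = 0.0123 to 0.0249), without the low-count filter (0.0114) and on the region alone (0.0507). That of Kcnq1 was lost without kainate mouse 30 or 38 or saline mouse 29, 37 or 41 at day 3 (0.0128 to 0.0267), and at day 7 without kainate mouse 21 or 35 or saline mouse 34 or 89 (0.0168 to 0.0345). Kcna5 had 5.57, 3.90 and 6.60 CPM in kainate mice 21, 26 and 35 at day 7, but 1.43 CPM in mouse 23, inside its saline range of 1.30 to 1.65 CPM.

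Kcnd1, the weakest expressed of the Kcnd family, was called in the PIZ at day 3 but not in the EZ. In the PIZ at day 3 it had 18.3, 16.1, 16.1 and 19.0 CPM in kainate and 12.5, 9.91, 9.02 and 9.75 CPM in saline mice, without overlap, and was higher by 0.76 on the log2 scale (SE 0.12, adjusted p = 1.93e-05). In the EZ it had 10.9, 10.5, 11.5 and 17.6 CPM against 12.01, 10.9, 11.2 and 9.74 CPM at day 3, with overlapping groups (0.21, adjusted p = 0.155). At day 7 the EZ values of Kcnd1 were 16.4, 13.3, 14.6 and 13.9 CPM against 10.2, 9.73, 10.2 and 9.13 CPM. The groups were apart, but at 1.48-fold the difference stayed under the fold threshold (adjusted p = 0.000124). In the PIZ at day 7 all kainate values of Kcnd1 again lay above all saline values, without a call. The difference between the 2 regions in the kainate effect on Kcnd1 was not called at day 3.

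Of the 9 modifier subunits, 4 were downregulated (44.4%) and 1 upregulated (11.1%) on each of the 2 days, compared with 8.61% and 16.1% of all genes at day 3 and 11.9% and 20.6% at day 7. The downregulated genes were Kcns3, Kcng3 and Kcng2 on both days, with Kcns1 at day 3 and Kcnv1 at day 7. The call of Kcns1 was lost in 4 of 8 fits that left out a mouse (adjusted p = 0.0133 to 0.025). Kcns3 (ENSMUSG00000043673.12, chr12:11140203-11201302), a partner of the Kcnb pores, had 1.65, 1.26, 1.52 and 3.12 CPM in kainate and 6.58, 6.71, 7.93 and 6.97 CPM in saline mice at day 3. At day 7 Kcns3 had 2.23, 4.13, 2.53 and 1.83 CPM against 5.92, 7.17, 8.26 and 7.91 CPM. Both days were free of overlap, with log2 fold changes of -1.91 at day 3 (SE 0.27, adjusted p = 1.1e-06) and -1.46 at day 7 (SE 0.27, adjusted p = 1.9e-05). Kcng3 (ENSMUSG00000045053.3, chr17:83892840-83939455), another silent partner of the Kcnb pores, was rarer, with 0.27, 0.34, 0.54 and 0.21 CPM in kainate and 1.37, 1.98, 2.31 and 2.24 CPM in saline mice at day 3. Its day 7 values were 0.12, 0.31, 0.39 and 0.083 CPM against 1.89, 2.43, 2.12 and 2.31 CPM. The resulting folds, 5.64-fold and 9.64-fold lower (log2 -2.50, SE 0.55 and -3.27, SE 0.59, adjusted p = 0.000303 and 1.54e-05), rested on few counts. Kcng2 at day 3 had 7.19, 6.89, 14.5 and 7.37 CPM against 22.0, 18.2, 15.8 and 22.9 CPM (-1.13, SE 0.31, adjusted p = 0.00238), and mouse 42 lay next to the saline range. This call was lost without kainate mouse 30 or 38 (adjusted p = 0.0104 and 0.0158) and on the region alone (0.0161). At day 7 Kcng2 in kainate mice 21 and 35 had 6.00 and 4.77 CPM, and mice 23 and 26 had 17.95 and 16.8 CPM, just under the lowest saline value of 17.96 CPM (-0.94, adjusted p = 0.00834). The day 7 call did not hold without kainate mouse 21 or 35 (adjusted p = 0.0556 and 0.0648) or saline mouse 33, 34 or 89 (0.0176 to 0.0238), by library size only (0.0122), or on the region or the libraries compared alone (0.0336 and 0.0918).

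Kcnf1 was the modifier that moved the other way in the EZ. At day 3 it had 274, 171, 182 and 40.96 CPM in kainate and 44.6, 60.7, 43.4 and 47.1 CPM in saline mice. Mouse 44 was below every saline mouse, while the other kainate mice were well above them (log2 fold change 1.77, SE 0.45, adjusted p = 0.0015). Kcnf1 at day 3 was not called without mouse 30 (adjusted p = 0.0132), on the libraries compared (0.0107) or on the region alone (0.0232). On the region alone its day 7 call was lost too (0.0177). At day 7 Kcnf1 had 123, 151, 188 and 295 CPM against 50.8, 59.3, 60.0 and 52.1 CPM, without overlap (1.77, SE 0.45, adjusted p = 0.0011). The PIZ value at day 3 was -0.89 (adjusted p = 0.148), and the EZ minus PIZ difference of 2.67 (SE 0.64) had an adjusted p of 0.0413 and was not called.

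Among auxiliary subunits, 7 of 13 were downregulated at day 3 and 8 at day 7, against 8.61% and 11.9% of all genes. The 2 upregulated on each day (15.4%) stood near the 16.1% and under the 20.6% of all genes. All 3 Kcnab genes, cytoplasmic partners of the Kcna pores, fell on both days, from -0.90 (Kcnab3) to -1.30 (Kcnab2) at day 3 and from -0.93 (Kcnab1) to -1.65 (Kcnab3) at day 7. The call of Kcnab3 at day 3 was lost without kainate mouse 30, 38 or 42 or saline mouse 18, 37 or 41 (adjusted p = 0.0103 to 0.0446), and that of Kcnab1 at day 7 without kainate mouse 35 (0.0107). At day 3 Kcnab3 was also not called by library size only (0.0163), on the libraries compared (0.0133) or on the region alone (0.0284). Kcnab2 had 229, 196, 313 and 361 CPM in kainate and 728, 603, 702 and 666 CPM in saline mice at day 3, without overlap. The BK channel subunits Kcnmb2 and Kcnmb4 fell on both days as well, by 0.86 to 2.18 on the log2 scale, though without kainate mouse 38 at day 3 Kcnmb4 (adjusted p = 0.0106), and without mouse 35 at day 7 Kcnmb2 (0.0103), were not called. On the region alone Kcnmb4 was not called at day 3 either (0.0138). The 4 Kcnip genes encode calcium-binding partners of the Kcnd pores and parted in direction. Kcnip1 (ENSMUSG00000053519.18, chr11:33576285-33943152) had 2.72, 4.09, 4.39 and 4.04 CPM in kainate and 10.6, 9.19, 11.5 and 10.4 CPM in saline mice at day 3, and 2.63, 4.59, 4.48 and 2.16 CPM against 11.6, 9.99, 12.7 and 13.8 CPM at day 7. The groups were far apart on both days (log2 fold change -1.45, SE 0.26, adjusted p = 2.79e-05, and -1.80, SE 0.27, adjusted p = 6.71e-07). Kcnip2 fell by 1.24 and 1.32 on the log2 scale and Kcnip4 by 0.90 at day 7.

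Kcnip3 (ENSMUSG00000079056.13, chr2:127298418-127364014), also known as the calcium-dependent transcriptional repressor DREAM, rose on both days, while Kcnip1 and Kcnip2 fell. Kainate mice had 240, 168, 199 and 178 CPM at day 3 and saline mice 83.9, 99.0, 78.7 and 82.4 CPM. At day 7 Kcnip3 had 114, 244, 187 and 129 CPM against 78.3, 97.8, 81.2 and 84.9 CPM. The groups did not overlap, and at day 7 mice 21 and 35, the lowest for Kcnb2 and Kcnq3, were also the lowest for Kcnip3. The change was 2.28-fold at day 3 (log2 1.19, SE 0.18, adjusted p = 1.96e-06) and 1.96-fold at day 7 (0.97, SE 0.18, adjusted p = 1.6e-05). Kcne5 (ENSMUSG00000090122.4, chrX:141087748-141089290), a small membrane-spanning subunit that inhibits Kcnq1 channels, showed the largest increase of the 80 genes at day 7. It had 62.8, 69.4, 65.8 and 32.6 CPM in kainate and 4.41, 6.12, 5.35 and 5.36 CPM in saline mice at day 3, and 121, 125, 104 and 128 CPM against 3.37, 4.86, 4.85 and 4.24 CPM at day 7. Every kainate library was far above every saline library, 10.8-fold at day 3 (log2 3.44, SE 0.58, adjusted p = 9.78e-06) and 27.5-fold at day 7 (4.78, SE 0.61, adjusted p = 6.41e-08).

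**Figure D2:**
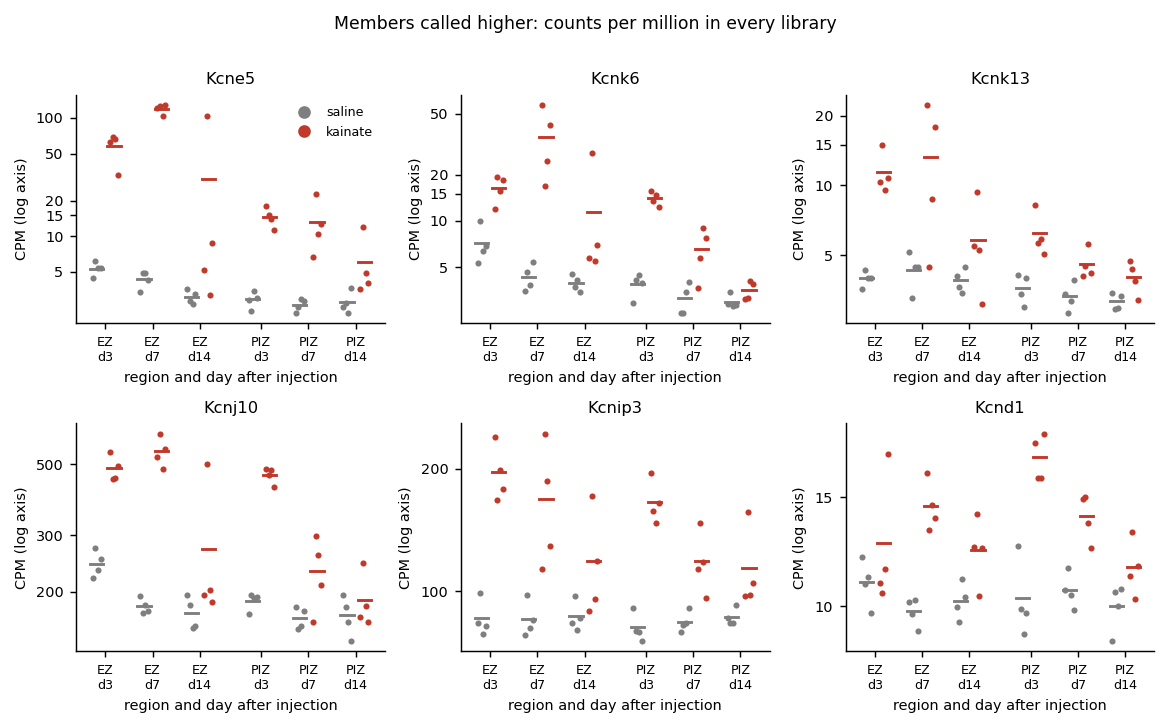
CPM (log axis) of 6 upregulated genes in every library, by region and day, with grey points for saline mice, red points for kainate mice and a line at each group's mean. In the EZ at day 14 mouse 27 lies far above the other kainate mice for Kcne5, Kcnk6 and Kcnj10, and Kcnd1 is highest in the PIZ at day 3.

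Of the 8 calcium- or sodium-activated channels, 4 were downregulated on both days, and leaving out Kcnn4, 0 of the other 7 were upregulated, compared with 8.61% and 11.9% of all genes downregulated and 16.1% and 20.6% upregulated at days 3 and 7. Kcnn2 (ENSMUSG00000054477.17), a small-conductance channel of the afterhyperpolarisation, had 15.04, 14.4, 18.5 and 21.9 CPM in kainate and 39.5, 33.2, 43.5 and 44.5 CPM in saline mice at day 3, and 21.2, 28.3, 21.6 and 16.1 CPM against 39.9, 36.8, 37.2 and 36.3 CPM at day 7. The separation was complete on both days, with log2 fold changes of -1.204 ± 0.18 (SE, adjusted p = 1.62e-06) and then -0.79 ± 0.18 (adjusted p = 0.000253). Its relatives Kcnn1 and Kcnn3 had log2 fold changes between -0.14 and 0.14 on both days. The sodium-activated Kcnt2 (ENSMUSG00000052726.17, chr1:140173436-140541709) had 17.3, 14.1, 14.5 and 18.5 CPM in kainate and 37.2, 45.5, 44.5 and 38.8 CPM in saline mice at day 3, and 7.33, 22.0, 19.0 and 10.7 CPM against 36.9, 33.9, 32.9 and 47.1 CPM at day 7. Kcnt2 was apart on both days (-1.37, SE 0.20, adjusted p = 1.11e-06, and -1.36, SE 0.20, adjusted p = 4.75e-07), and Kcnt1 fell by 1.45 and 1.51. Kcnma1, the BK pore, had log2 fold changes of -0.86 and -1.18 (adjusted p = 0.000245 and 2.07e-06).

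Kcnn4 (ENSMUSG00000054342.9, chr7:24066915-24086115), an intermediate-conductance channel best known from leukocytes and red cells, was close to absent from saline mice. At day 3 it had 1.11, 4.25, 3.77 and 0.67 CPM in kainate mice and 0.13 to 0.15 CPM in the saline mice, or 260 counts against 12 over the 4 libraries of each group. At day 7 Kcnn4 had 2.63, 0.36, 1.33 and 2.45 CPM against 0.15, 0.22, 0.052 and 0.094 CPM, or 167 counts against 11. The ratios of summed counts were 18.2 (exact 95% interval 10.2 to 35.7) and 13.3 (7.25 to 27.2), where the intervals cover counting error alone. As the minimum count admitted Kcnn4 through kainate libraries alone, its difference is given as a description, without a p. The 3 tested genes of the leukocyte list (Ptprc, Itgal and Ccr2) were also upregulated on both days, with summed levels over the 5 listed genes of 34.9 to 97.8 CPM in kainate and 7.64 to 18.4 CPM in saline mice at day 3. Their part in the rise of Kcnn4 was not tested.

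**Figure D3:**
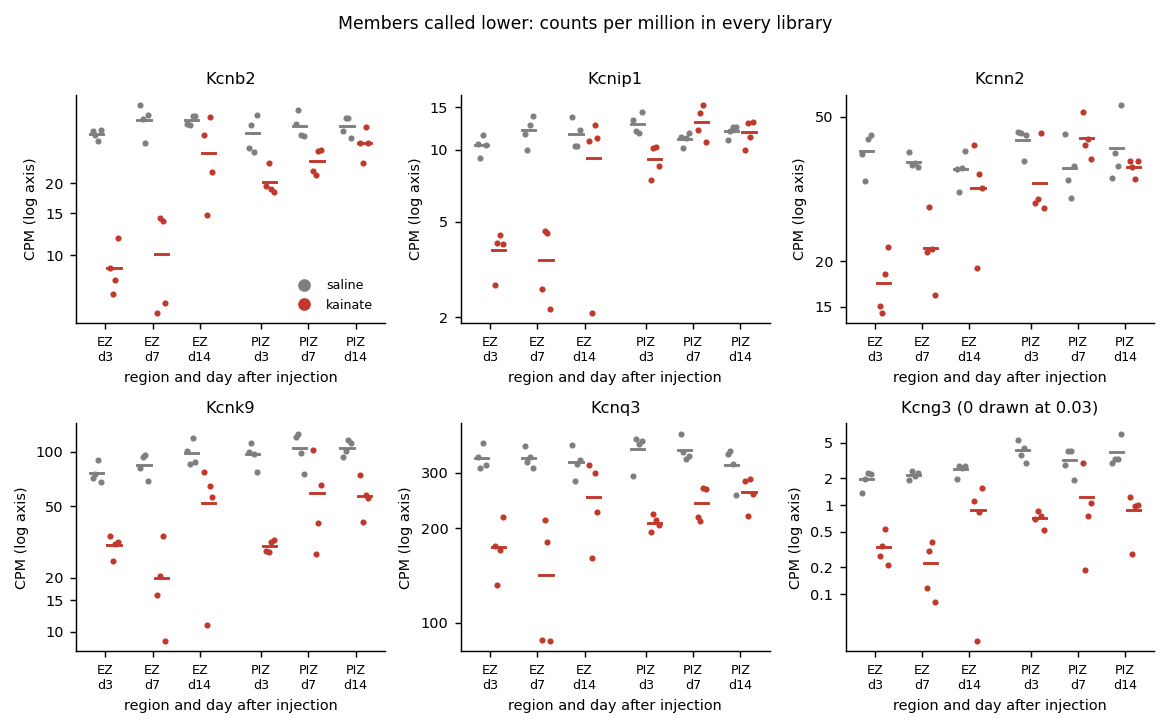
CPM (log axis) of 6 downregulated genes in every library, drawn as for the upregulated genes, with the library of Kcng3 at 0 counts placed at the foot of its panel. Kainate mice lie below saline mice in the EZ at days 3 and 7 for each gene. In the PIZ at day 3 Kcnb2, Kcnip1, Kcnk9, Kcnq3 and Kcng3 are separated in the same way and Kcnn2 is not.

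Of the 12 inward rectifiers, 3 were upregulated and 1 downregulated at day 3 and 4 and 1 at day 7. These shares, 25% and 8.33% at day 3 and 33.3% and 8.33% at day 7, stand beside 16.1% and 8.61%, and 20.6% and 11.9%, of all genes, where upregulation was also the more frequent direction. Kcnj10 (ENSMUSG00000044708.6, chr1:172168765-172201652), the main channel of glial potassium buffering, had 545, 451, 454 and 493 CPM in kainate and 220, 273, 233 and 252 CPM in saline mice at day 3. At day 7 Kcnj10 had 528, 622, 482 and 559 CPM against 194, 171, 182 and 174 CPM. No values overlapped, at 1.99-fold (log2 0.99, SE 0.19, adjusted p = 6.83e-05) and 3.04-fold (1.602, SE 0.20, adjusted p = 3.85e-08). Of the 6 astrocyte markers 3 were upregulated and 1 (Slc1a2) downregulated at day 3, when their sums of 8165 to 9762 CPM in kainate and 5956 to 8759 CPM in saline mice overlapped. At day 7, 4 were upregulated and they summed to 10940 to 12390 CPM in kainate and 4769 to 5472 CPM in saline mice, and their part in the rise of Kcnj10 was not tested. Kcnj16, with which Kcnj10 forms mixed channels, had log2 fold changes of 0.45 and 0.52 (adjusted p = 0.115 and 0.0648). The 2 pores of ATP-sensitive channels went opposite ways. Kcnj8, the vascular form, rose by 0.95 and 0.85, and Kcnj11, the neuronal form, fell by 0.86 and 1.17 on the log2 scale. Kcnj2 rose at day 7, with 72.4 ± 17.2 CPM against 25.3 ± 4.17 CPM (1.52, SE 0.39, adjusted p = 0.00107). Among the G protein-gated genes Kcnj3, Kcnj6 and Kcnj9 were not DEG on either day, at -0.42, -0.85 and -0.55 at day 7 (adjusted p = 0.0749, 0.0149 and 0.0221), and Kcnj5, at 0.0693 RPKM in saline mice, rose by 1.32 and 1.26. Calls lost on leaving out a mouse were those of Kcnj11 at day 3 (kainate mouse 30 or 38, adjusted p = 0.0249 at most), Kcnj8 at day 3 (kainate mouse 38, 0.0476) and at day 7 (kainate mouse 21 or 35 or saline mouse 89, 0.011 to 0.0415), and Kcnj5 at day 3 (kainate mouse 38 or saline mouse 18, 0.0187 and 0.0393) and at day 7 (kainate mouse 21 or 35 or saline mouse 20 or 33, 0.0156 to 0.0363).

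Of the 10 genes for 2-pore leak channels, Kcnk5 was kept through kainate libraries alone, and of the other 9, 2 were upregulated and 3 downregulated at day 3, beside 16.1% and 8.61% of all genes, and 2 and 4 at day 7, beside 20.6% and 11.9%. Kcnk6 (ENSMUSG00000046410.11, chr7:28921346-28932035), a weakly expressed member known from blood vessels and myeloid cells, had 11.97, 19.4, 15.7 and 18.5 CPM in kainate and 5.30, 9.995, 6.41 and 6.82 CPM in saline mice at day 3. At day 7 it had 56.7, 16.9, 24.8 and 42.6 CPM against 3.47, 4.65, 3.82 and 5.42 CPM, with mice 21 and 35 the highest. The groups were apart on both days, at 2.30-fold (log2 1.2, SE 0.34, adjusted p = 0.00375) and 8.11-fold (3.02, SE 0.36, adjusted p = 3.57e-08). The day 3 call of Kcnk6 was lost without kainate mouse 38 or 44 or saline mouse 18, 37 or 41 (adjusted p = 0.01 to 0.0191) and on the region alone (0.0307). Kcnk13 (ENSMUSG00000045404.17, chr12:99924948-100028942), the leak channel of microglia, had 10.3, 15, 9.50 and 10.8 CPM against 3.58, 4.32, 3.97 and 3.995 CPM at day 3, and 22.1, 4.44, 8.70 and 17.9 CPM against 5.16, 3.26, 4.44 and 4.43 CPM at day 7. Kainate mouse 23 lay inside the saline range of Kcnk13 at day 7 (log2 fold changes 1.52 and 1.63, SE 0.28 each, adjusted p = 3.45e-05 and 7.27e-06). At day 7 all 6 microglial markers were upregulated, and their summed level of 1361 to 4815 CPM in kainate mice lay above the 396 to 431 CPM of saline mice. The part of these markers in the rise of Kcnk13 and Kcnk6 was not tested.

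Kcnk9 (ENSMUSG00000036760.8, chr15:72372938-72419556), an acid-sensitive leak channel of neurons, had 34.1, 24.8, 30.7 and 31.7 CPM in kainate and 71.4, 75.7, 90.2 and 67.7 CPM in saline mice at day 3, and 15.95, 20.4, 33.9 and 8.88 CPM against 81.5, 93.8, 95.9 and 69.0 CPM at day 7. All kainate values were under all saline values (log2 fold change -1.33 ± 0.34, adjusted p = 0.00155, then -2.10 ± 0.35, adjusted p = 4.61e-06, ± SE). The mechanically gated Kcnk2 fell by 1.04 and 0.997 on the log2 scale. Its relative Kcnk4, singled out after its values were seen, had 1.08 ± 0.693 CPM against 8.56 ± 1.97 CPM at day 3, at -2.99 and -3.31 (adjusted p = 3.3e-05 and 5.6e-06). Kcnk4 shares 587 bases of exon, 12.2% of its length, with Catsperz on the same strand, so its counts are uncertain. The abundant Kcnk1 had 0.26 and 0.20 (adjusted p = 0.386 and 0.486) and was not a DEG.

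In the EZ at day 14, 2 of the 80 genes were upregulated and 0 downregulated, compared with 2.32% and 0.0374% of all genes, and 16 had an unadjusted p under 0.05. The 2 genes were Kcne5 and Kcnk6. Kcne5 had 5.19, 104, 3.20 and 8.77 CPM in kainate mice 14, 27, 36 and 40 and 3.56, 2.85, 2.66 and 3.26 CPM in saline mice 24, 28, 31 and 39 (log2 fold change 3.29, SE 0.59, adjusted p = 0.000881). Kcnk6 had 5.75, 27.8, 5.51 and 6.93 CPM against 4.501, 3.70, 4.13 and 3.44 CPM (1.55, SE 0.35, adjusted p = 0.00537). In both, mouse 27 alone was several-fold higher than the other kainate mice. At this day 4 of 6 microglial and 2 of 6 astrocyte markers were upregulated too. The microglial list summed to 444 to 2429 CPM in kainate and 362.7 to 384.5 CPM in saline mice. The part of these markers in the 2 increases was not tested. Without mouse 27 no gene was called (0 of 80), with mouse as a block likewise 0, and with limma-voom 0. Without saline mouse 31 the count was 0 as well, without saline mouse 24, 28 or 39 it was 1, and without kainate mouse 36 it was 4. The median over the 80 genes was -0.21, beside 0.00 for all genes, and all kainate libraries lay below all saline libraries for 6 genes, or 7.5% against 3.42% of all genes.

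In the PIZ at day 3, 5 potassium channel genes were upregulated and 6 downregulated, or 6.25% and 7.5%, compared with 7.12% and 1.57% of all genes. By library size alone, without TMM factors, the split was 6 and 4. The upregulated genes were Kcnj10, Kcnd1, Kcnip3, Kcnk6 and Kcne5. Kcnj10 had 483, 462, 480 and 423 CPM in kainate and 171, 195, 191 and 192 CPM in saline mice (log2 fold change 1.31, SE 0.19, adjusted p = 8.11e-06). Kcnip3 had 195, 157, 147 and 165 CPM against 91.1, 80.2, 79.5 and 75.5 CPM (1.03, SE 0.18, adjusted p = 6.5e-05). Both were raised to a similar level in all 4 mice. Kcnk6 had 15.7, 13.5, 14.7 and 12.4 CPM against 2.92, 4.13, 4.46 and 3.96 CPM (1.86, SE 0.35, adjusted p = 0.000205), and Kcne5 had 17.9, 14.95, 13.9 and 11.3 CPM against 2.88, 2.33, 3.42 and 3.01 CPM (2.31, SE 0.58, adjusted p = 0.00358). All 6 microglial and 3 of 6 astrocyte markers (Gfap, Aldh1l1 and Aqp4) were upregulated there too, with summed levels of 8600 to 9416 CPM in kainate and 4155 to 5598 CPM in saline mice for the astrocyte list, and the part of these cells in the 4 increases was not tested.

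The downregulated genes of the PIZ were Kcng3, Kcnk9, Kcng2, Kcnq3, Kcnh5 and Kcnt2. Kcng3 had 0.70, 0.85, 0.76 and 0.52 CPM in kainate and 5.38, 3.60, 4.38 and 2.96 CPM in saline mice (log2 fold change -2.52, SE 0.50, adjusted p = 0.000335). Kcnk9 had 28.2, 27.9, 31.4 and 32.2 CPM against 99.5, 112, 97.8 and 77.7 CPM (-1.69, SE 0.35, adjusted p = 0.000456). The kainate mice lay close together in both. Kcng2 had 5.94, 7.48, 13.8 and 7.83 CPM against 23.4, 18.9, 22.8 and 22.7 CPM (-1.33, SE 0.31, adjusted p = 0.00163), with mouse 42 the highest as in the EZ. Kcnq3 had 195, 221, 212 and 205 CPM against 294, 384, 370 and 379 CPM (-0.78, SE 0.19, adjusted p = 0.00307). Kcnh5 had log2 fold change -1.08 (SE 0.29, adjusted p = 0.00597), with mouse 38 at 5.25 CPM near the saline minimum of 5.90 CPM, and Kcnt2 had -0.72 (SE 0.19, adjusted p = 0.00617). Over the 6 general neuronal markers the median log2 fold change in the PIZ at day 3 was -0.35. The count of 11 fell to 6 without kainate mouse 30 and to 7 without saline mouse 29 or 41, and was 18 with limma-voom and 4 with glmTreat. Leaving out a mouse ended the calls of Kcnh5 in 7 of 8 fits (adjusted p = 0.0105 to 0.0355), of Kcnt2 in 6 (0.0109 to 0.0324), of Kcne5 in 5 (0.0107 to 0.0149), of Kcnq3 in 3 (0.0113 to 0.0132) and of Kcng2 in 1 (0.0115), and kainate mouse 30 was among those left out for each of the 5 genes. Kcng3, Kcnj10, Kcnk6 and Kcnk9 were called under every alternative tried.

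Of these 11 genes, 10 were DEG in the EZ at day 3 in the same direction, in the other dentate gyrus of the same mice. They were 4 of the 5 upregulated (80%) and 6 of the 6 downregulated genes of the PIZ, and 4 of the 12 and 6 of the 29 of the EZ. Over all genes tested, 84.8% of the upregulated and 74.9% of the downregulated genes of the PIZ were called in the EZ as well. These were 37.6% of the upregulated and 13.6% of the downregulated genes of the EZ. For the genes called in both regions, promoters are shown where RefSeq gives a single start, from 250 bases before to 50 bases after it in GRCm38.p6, 5′ to 3′ on the strand of the gene. Capitals mark the GC box (GGGCGG, on either strand). Among 32851 RefSeq promoters of this length, 35.7% held a GC box, and among the 16372 promoters of tested genes 57.6% did. Kcng3 lies at chr17:83631846-83632145 on the minus strand, Kcnh5 at chr12:75177283-75177582 on the minus strand, Kcnj10 at chr1:172340960-172341259 on the plus strand and Kcnt2 at chr1:140245468-140245767 on the plus strand.
Kcng3: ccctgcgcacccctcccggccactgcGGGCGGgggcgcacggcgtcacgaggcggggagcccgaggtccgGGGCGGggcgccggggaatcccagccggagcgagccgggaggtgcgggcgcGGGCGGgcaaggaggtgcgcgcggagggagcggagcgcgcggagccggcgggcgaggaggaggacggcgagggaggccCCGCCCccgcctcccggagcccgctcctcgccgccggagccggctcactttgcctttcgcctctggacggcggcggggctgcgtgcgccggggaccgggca
Kcnh5: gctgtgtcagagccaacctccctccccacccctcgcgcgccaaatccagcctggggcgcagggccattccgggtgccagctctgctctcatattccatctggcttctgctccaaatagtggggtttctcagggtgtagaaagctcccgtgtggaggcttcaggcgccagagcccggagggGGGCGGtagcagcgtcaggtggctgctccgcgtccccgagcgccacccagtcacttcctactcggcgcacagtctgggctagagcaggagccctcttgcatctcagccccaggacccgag
Kcnj10: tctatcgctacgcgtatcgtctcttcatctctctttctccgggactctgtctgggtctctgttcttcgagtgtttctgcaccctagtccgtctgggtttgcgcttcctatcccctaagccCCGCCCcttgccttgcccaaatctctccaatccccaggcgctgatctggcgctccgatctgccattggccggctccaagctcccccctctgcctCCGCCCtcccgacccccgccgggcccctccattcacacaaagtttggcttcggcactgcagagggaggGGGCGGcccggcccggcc
Kcnt2: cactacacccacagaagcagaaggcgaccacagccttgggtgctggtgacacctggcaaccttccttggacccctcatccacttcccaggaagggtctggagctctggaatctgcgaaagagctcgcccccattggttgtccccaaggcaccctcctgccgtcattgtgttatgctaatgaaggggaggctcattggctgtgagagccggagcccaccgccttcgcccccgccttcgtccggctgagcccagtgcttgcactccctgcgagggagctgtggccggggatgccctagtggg
Kcng3, Kcnj10, Kcnh5 and Kcnt2 thus held 4, 3, 1 and 0 GC boxes, and 49, 21, 17 and 12 CpG dinucleotides. Of the downregulated genes, Kcng3 had the most and Kcnt2 the fewest, and the upregulated Kcnj10 lay between them.

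At days 7 and 14 in the PIZ no potassium channel gene was called by edgeR (0 of 80 on each day, 14 and 5 at an unadjusted p under 0.05), compared with 0.15% and 0.0514% of all genes upregulated and downregulated at day 7, and 0.00935% and 0.00468% at day 14. DESeq2 called 1 and 0 genes, and limma-voom 6 and 2. The medians over the 80 genes were -0.08 and -0.05. At day 7 all kainate libraries lay above all saline libraries for 7 genes and below them for 10. These were 8.75% and 12.5%, against 7.63% and 5.26% of all genes. At day 14 they did so for 1 and 3 genes, or 1.25% and 3.75%, against 3.7% and 3.47% of all genes. Kcne5 in the PIZ at day 7 had 6.61, 22.5, 10.5 and 12.6 CPM in kainate and 2.25, 2.52, 2.91 and 2.82 CPM in saline mice, without overlap (log2 fold change 2.31, SE 0.60, adjusted p = 0.037). Kcng3 at day 14 had 1.22, 0.29, 0.98 and 0.998 CPM against 2.94, 3.29, 3.30 and 6.27 CPM, also without overlap (-2.17, SE 0.49, adjusted p = 0.11).

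**Figure D4:**
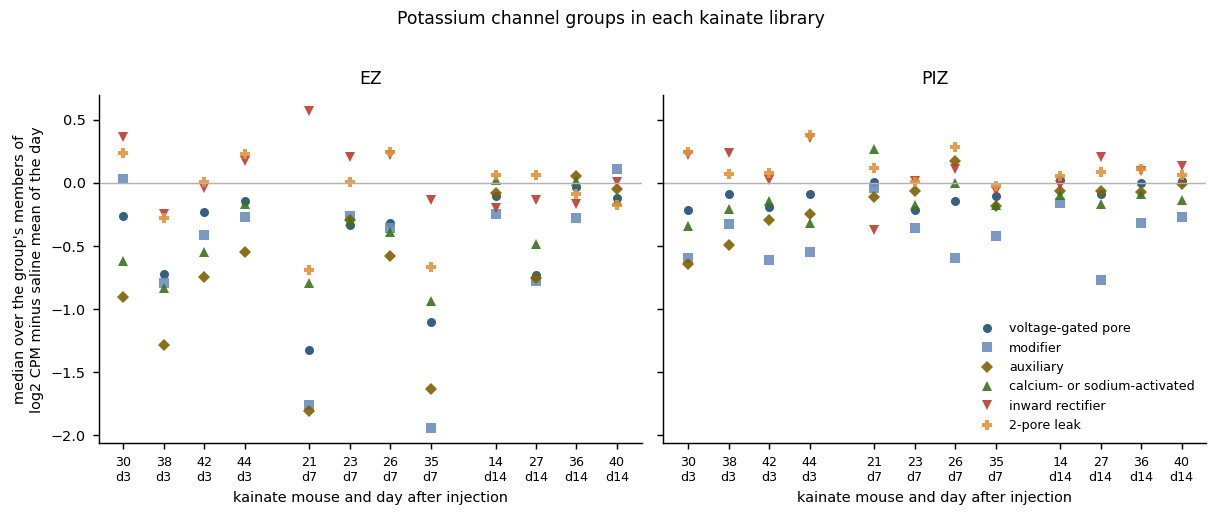
Median difference in log2 CPM from the saline mean of the same day over the genes of each kind of channel, 1 point per kainate library, for the EZ and the PIZ. At day 7 in the EZ, mice 21 and 35 lie at -1.33 and -1.10 for voltage-gated pores and mice 23 and 26 at -0.33 and -0.32, and at day 14 mouse 27 lies at -0.73.

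Whether kainate acted differently on the injected and the other side was tested as the EZ effect minus the PIZ effect. At day 3 no potassium channel gene was called by edgeR (0 of 80), with 0.0374% and 0.0281% of all genes called higher and lower by edgeR. At an unadjusted p under 0.05 there were 19 genes, and DESeq2 called 2 and limma-voom 18. No share of all genes is given beside these 3 counts. Kcnf1 had the smallest p there. Without kainate mouse 44, whose Kcnf1 level was under its saline range, 4 genes were called. At day 7, 4 genes had a larger and 12 a smaller value in the EZ, or 5% and 15%, against 7% and 2.88% of all genes. The log2 differences of the 12 lower genes ran from -0.74 (Kcna2, SE 0.20, adjusted p = 0.0083) to -2.79 (Kcnc2, SE 0.76, adjusted p = 0.00745), and the smallest p were those of Kcnip1 at -2.04 (SE 0.37, adjusted p = 0.00159), Kcnab3 at -1.89 (SE 0.39, adjusted p = 0.00208) and Kcnh2 at -1.66 (SE 0.37, adjusted p = 0.00251). Kcnb2, Kcnt1, Kcnn2, Kcnma1, Kcns3 and Kcnc1 were among the others. The 4 higher genes were Kcnj10 at 1.11 (SE 0.27, adjusted p = 0.00423), Kcnk6 at 1.96 (SE 0.50, adjusted p = 0.00542), Kcna5 at 1.85 (SE 0.50, adjusted p = 0.00725) and Kcnj2 at 1.96 (SE 0.55, adjusted p = 0.00887). For 4 of the 6 neuronal markers the EZ value was also lower, and for 3 of 6 astrocyte and 6 of 6 microglial markers higher, at this day. Leaving out single animals changed the count of 16. Omitting kainate mouse 21 left 0 genes, omitting mouse 35 left 2 and omitting mouse 23 gave 25, and omitting saline mouse 20, 33, 34 or 89 left 1, 6, 4 or 2. A fit with the mouse as block called 17 genes, 13 of them among these 16. Kcnk6 and Kcna2 were among those that this fit no longer called. With glmTreat the count was 0. At day 14 no potassium channel gene was called (0 of 80 by edgeR, DESeq2 and limma-voom, 3 at an unadjusted p under 0.05), nor any of all genes tested (0% in either direction).

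**Figure D5:**
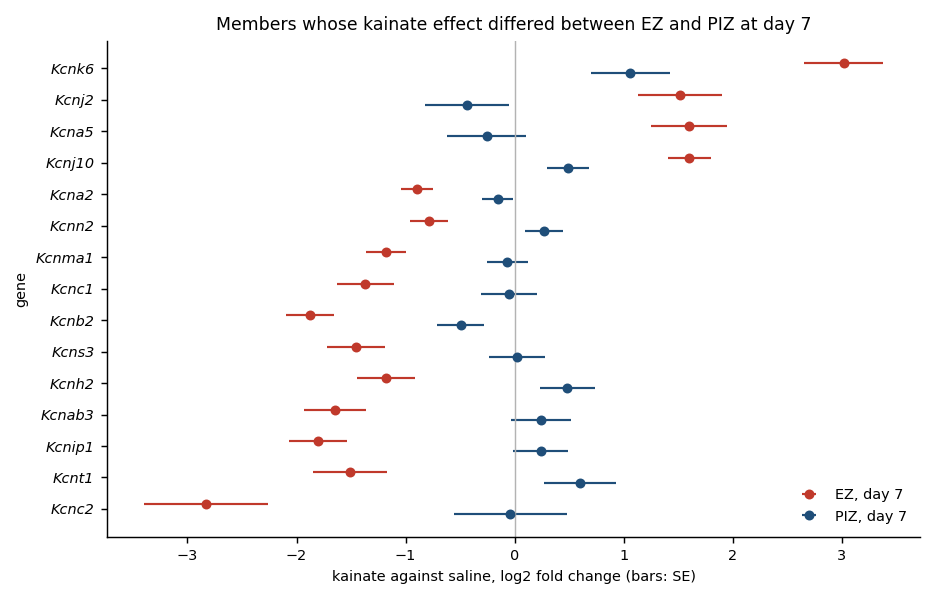
Log2 fold change of kainate against saline at day 7 in the EZ and in the PIZ, with bars for 1 standard error, for 15 of the 16 genes whose effect differed between the regions. The EZ values of 11 genes lie below their PIZ values and those of Kcnj10, Kcnk6, Kcna5 and Kcnj2 lie above.

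Whether the response to kainate changed between days was tested in the same model. The shares of all genes below are those called by edgeR after adjustment. No such share is given for counts at an unadjusted p, by other tools or without a mouse. From day 3 to day 7 no potassium channel gene was called in the EZ by edgeR (0 of 80, 10 at an unadjusted p under 0.05, 0 by DESeq2 and 9 by limma-voom, with 0.112% and 0.0327% of all genes called higher and lower). Kcnk6 came first at 1.82 (SE 0.48, adjusted p = 0.0696). From day 7 to day 14 again 0 genes were called by edgeR, beside 0.122% and 0.15% of all genes called higher and lower by edgeR. Of the 80 genes, 40 had an unadjusted p under 0.05, 6 were called by DESeq2 and 44 by limma-voom. Kcnb2 moved by 1.41 (SE 0.30, adjusted p = 0.0103), Kcnma1 by 1.07 (adjusted p = 0.0145) and Kcnip1 by 1.46 (adjusted p = 0.0155), all towards their saline level. Without kainate mouse 27 of day 14, 31 genes were called, and without kainate mouse 23 or 26 of day 7, 16 and 8. In the PIZ from day 3 to day 7 edgeR called 0 genes (8 at an unadjusted p under 0.05, 0 by DESeq2, 1 by limma-voom, with 0.014% and 0.00935% of all genes). Kcnj10 moved by -0.81 there (adjusted p = 0.25). Between the saline libraries of the 2 sides no potassium channel gene was called by edgeR (0 of 80, 4 at an unadjusted p under 0.05, 0 by DESeq2, with 0.0234% and 0% of all genes), with Kcng3 at -0.74 (adjusted p = 0.436) and Kcnk6 at 0.59 (adjusted p = 0.437). Both sides came from the same mice, and within mice Kcng3 was lower in the EZ in 11 of 12 and Kcnk6 higher in 12 of 12. With mouse as a block the count was also 0. Over the 6 microglial markers the median of EZ minus PIZ in saline mice was 0.46, with 0 called. Their part in the Kcnk6 values was not tested.

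Genes that work with these channels were counted from a fixed list, beside 16.1% of all genes upregulated and 8.61% downregulated in the EZ at day 3, 20.6% and 11.9% at day 7, and 7.12% and 1.57% in the PIZ at day 3. Of 14 tested channel partners, which anchor, traffic or complete the pores, 3 were upregulated and 6 downregulated in the EZ at day 3, 2 and 7 at day 7, and 0 and 1 in the PIZ at day 3. Cntnap2, which clusters Kcna channels on axons, had log2 fold changes of -1.90 (SE 0.24, adjusted p = 1.34e-07) and -1.68 in the EZ and of -0.81 (SE 0.23, adjusted p = 0.00851) in the PIZ at day 3. Dpp10, an extracellular partner of the Kcnd pores, had -1.98 and -1.88 in the EZ, and Lgi1, an epilepsy gene that acts with Kcna channels, -0.93 and -0.91. The sulfonylurea receptors followed the pores they complete, with Abcc8, partner of Kcnj11, at -1.57 and -1.85, and Abcc9, partner of Kcnj8, at 1.23 and 0.86. Of 10 sodium pump and cation-chloride cotransporter genes, which set the potassium and chloride gradients, 2 were upregulated and 2 downregulated in the EZ at day 3, 5 and 3 at day 7, and 1 and 0 in the PIZ at day 3. The neuronal chloride extruder gene Slc12a5 fell by 0.69 at day 3 and by 1.06 at day 7 on the log2 scale. At day 7 the glial pump gene Atp1b2 rose by 1.08. At EZ day 14 and at PIZ days 7 and 14 the medians of the partners were -0.18, -0.08 and -0.08, and those of the pumps and cotransporters -0.04, -0.05 and -0.07.

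Marker lists of cell types were counted in the EZ in the same way. Beside the general neuronal markers, of the 6 granule cell markers 2 and 3 were downregulated, with 398 to 801 CPM against 831 to 1026 CPM at day 3 and 167 to 819 CPM against 700 to 1172 CPM at day 7, and of the 6 interneuron markers 4 and 3. Among CA1 and CA3 pyramidal markers, 4 each, 1 and 2 were downregulated at day 3 and 2 and 3 at day 7. Microglial markers were upregulated for 5 of 6 and 6 of 6, endothelial markers for 3 of 4 on both days, mural markers for 2 of 4, oligodendrocyte precursor markers for 2 of 2 and oligodendrocyte markers for 0 and 1 of 5. In the choroid plexus list 1 of 3 tested genes was downregulated on both days, and the median of the 2 blood genes was -0.09 at day 3 and -0.35 at day 7. No marker of these lists was at 0 in all libraries of a group except Folr1 in the PIZ saline group of day 7. The 6 granule cell markers summed to at least 167 CPM in every library. How much of the change of each channel gene went with the change in these cell types was not tested.

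The 35 genes downregulated in the EZ at day 7 had a median genomic span of 149 kb. It was 10.7 kb for 11 upregulated genes, leaving out Kcnn4 and Kcnk5, and 25.1 kb for the other 32 potassium channel genes. The median exon length of the 35 was 8.17 kb, against 4.79 kb for these 11, and their median saline level 6.92 RPKM, against 0.995 RPKM. Over all genes with a known length, the 2527 downregulated ones had medians of 32.7 kb of span, 6.26 kb of exon and 5.61 RPKM. The upregulated ones had 18.8 kb, 4.62 kb and 0.86 RPKM, so downregulated genes were longer and better expressed over all genes too. RefSeq promoters were found for 56 of the 80 genes (79 promoters). A GC box was present in 51.3% of the promoters of downregulated genes and 50% of those of these 11. An E-box (CACGTG) was present in 5.13% and 10%, the latter of 10 promoters, compared with 9.15% of the promoters of all tested genes. The cAMP response element (TGACGTCA) was in 0% of the 79 promoters and in 2.64% of those of tested genes, and a TATA box (TATAAA) in 3.8% and 8.04%, each searched on both strands. These are descriptions of letters in a window and carry no test.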

How the data were processed

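Gene expression was measured by stranded polyA RNA sequencing in 48 libraries, 4 mice in each of 12 groups of region, treatment and day. Per the submitters' notes and the study's methods, the authors trimmed reads with fastp 0.20.1, aligned them to GRCm39 with HISAT2 2.2.1 and counted them per gene with featureCounts (Subread 1.6.4, strand-specific, primary alignments of multimapping reads included, overlapping features assigned to the largest overlap). The deposited values are these raw counts per gene, not normalized. Counting of multimapping reads can place reads on a paralog. Columns of the count table were matched to libraries by their titles, and mice by the number in the title.

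From the counts, TMM factors, CPM and RPKM (CPM per kilobase of merged exons, Gencode M39) were computed, and log2 CPM used a prior count of 2. After edgeR's filterByExpr, 21390 genes, holding 99.92% of counts, were fitted with 12 group means by edgeR 4.0.16 (glmQLFit, glmQLFTest) in R 4.3.3. Symbols, positions and biotypes were matched for 98.9% of gene identifiers. A gene was a DEG where p after Benjamini-Hochberg adjustment was under 0.01 and the fold change exceeded 1.5. Standard errors are the absolute log2 fold change divided by the root of F. Mice are the replicates, and 2 libraries of a mouse share the animal. Their residuals correlated by -0.0536 to 0.376, above 0.1 in 20 of 24 mice (consensus 0.163), and mouse as a block was an alternative. Other alternatives were DESeq2 1.42.0, limma-voom 3.58.1 with quality weights, other size factors and filters, glmTreat, fits on fewer libraries, an adjusted p under 0.05 and leaving out each mouse. The scripts were tested on simulated data. Depth was similar between libraries, and intervals on counts cover counting error only.

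The genes and lists were chosen with earlier results of these data known. Named genes were the 4 with the smallest p in each direction and kainate comparison, the 3 with the smallest p in each direction for differences between regions or days (in comparisons with 0 calls, the leading genes), the most abundant gene of each subfamily, and 15 well-known channel genes. Genes in counts of 5 or fewer were also named. Further genes, given to complete a family or for their known role, were chosen after their values were seen. Values of some of these and of some listed genes are not reported here. Sequences are RefSeq promoters of GRCm38.p6, and positions of genes are those of GRCm39. Sequence of Kcng2 and Kcnn2 and all protein sequence were not used here.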

Additional observations from a re-analysis of the deposited data

Results flagged for a closer look

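For 17 potassium channel genes, those with the smallest p in each direction of the kainate comparisons, each group of 4 mice was checked for a library far from the other 3 by Dixon's test on log2 CPM, while the values below are CPM. Of 204 groups, 20 held such a library (9.8%, where chance gives about 1 in 20). Without Kcnn4, which was kept through kainate libraries alone, 19 of 192 did. Mouse 27 at day 14 accounted for the most. In its EZ library Kcnj10 was 500.6 CPM (others 186.0 to 201.9), Kcnk6 27.8 CPM (5.51 to 6.93), Kcnn4 0.816 CPM (0.13 to 0.17), Kcnip1 2.09 CPM (10.9 to 12.7) and Kcnk9 10.9 CPM (56.3 to 77.3). In its PIZ library Kcnip3 was 156 CPM (97.2 to 104.8) and Kcng3 0.287 CPM (0.98 to 1.22). Kcne5 in the same EZ library, at 104 CPM, did not pass on the log scale. The EZ level of Kcnj10 in mouse 27 lay within the range of 482 to 622 CPM of the kainate mice of day 7. In the other kainate groups, Kcne5 was low in the EZ of mouse 44 at day 3 (32.6 CPM, others 62.8 to 69.4), and mouse 42 was high at day 3 for Kcng2 in the EZ (14.5 CPM, 6.89 to 7.37) and for Kcnn2 in the PIZ (45.1 CPM, 28.1 to 29.6).

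In saline mice of day 3 the PIZ library of mouse 18 was low for Kcnj10 (170.7 CPM) and Kcnq3 (294 CPM), that of mouse 29 for Kcng2 (18.9 CPM) and that of mouse 37 for Kcnn2 (37.8 CPM). At day 14 the PIZ library of saline mouse 39 was high for Kcng3 (6.27 CPM) and low for Kcnh5 (3.62 CPM) and Kcnt2 (29.5 CPM), that of mouse 28 was high for Kcnk6 (3.42 CPM), and the EZ library of mouse 24 was low for Kcng3 (1.98 CPM). At day 7 the PIZ library of saline mouse 34 was low for Kcns3 (6.70 CPM).

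For 16 genes the kainate effect at day 7 differed between the regions by the test of the difference itself. In log2 units, EZ minus PIZ, they included -2.04 for Kcnip1, -1.89 for Kcnab3, -1.66 for Kcnh2, -1.38 for Kcnb2, -2.11 for Kcnt1, -1.06 for Kcnn2, -1.11 for Kcnma1, -1.48 for Kcns3, -2.79 for Kcnc2, -0.74 for Kcna2 and -1.32 for Kcnc1, and 1.11 for Kcnj10, 1.96 for Kcnk6, 1.85 for Kcna5 and 1.96 for Kcnj2. None of the 16 calls was kept in all fits that left out a mouse (0 of 16).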

How the results depend on the processing

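Of 1667 recomputed values of single genes, 1430 kept their direction and call, 237 lost the call and 0 reversed. The counts of called genes were 41 and 48 in the EZ at days 3 and 7, and with glmTreat against a fold of 1.5 they were 18 and 29. With the 8 libraries compared fitted alone the day 7 count was 22. At EZ day 14, where 2 were called, DESeq2 and glmTreat gave 1, and limma-voom, the fit with mouse as a replicate block, and fits on the libraries compared or on the region alone gave 0. In the PIZ the 11 of day 3 became 4 with glmTreat and 18 with limma-voom, the 0 of day 7 became 1 with DESeq2, 2 at an adjusted p under 0.05, 6 with limma-voom and 3 on the libraries compared or the region alone, and the 0 of day 14 became 2 with limma-voom. For EZ minus PIZ at day 3, 0 became 2 with DESeq2 or at an adjusted p under 0.05 and 18 with limma-voom, and at day 7, 16 became 31 at an adjusted p under 0.05, 37 with limma-voom and 0 with glmTreat. From day 3 to day 7, limma-voom called 9 in the EZ and 1 in the PIZ. From day 7 to day 14 in the EZ, 0 became 6 with DESeq2, 18 at an adjusted p under 0.05, 44 with limma-voom, and 1 with RLE size factors, with library size only or with at least 10 counts in every library. The cause of these shifts was not tested, and shares of all genes under these settings are not given.

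Leaving out each mouse in turn gave 31 to 43 genes at EZ day 3, 39 to 56 at EZ day 7, 0 to 4 at EZ day 14, 6 to 11 at PIZ day 3, 0 to 4 for EZ minus PIZ at day 3, 0 to 25 at day 7 and 0 to 31 for EZ day 14 minus day 7. Calls kept in every such fit numbered 30 of 41, 38 of 48, 0 of 2, 6 of 11 and 0 of 16 for EZ days 3, 7 and 14, PIZ day 3 and EZ minus PIZ at day 7. The mouse block gave 41 and 49 in the EZ at days 3 and 7, 11 in the PIZ at day 3 and 17 for EZ minus PIZ at day 7, where Kcnk6 and Kcna2 (adjusted p = 0.0104 and 0.0111) were among the 3 no longer called, and 0 in the other comparisons. Without TMM factors the median of all genes moved by 0.127 at EZ day 3.

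With 4 mice per group, a call at day 14 or between regions could turn on a single animal. Kcng3, Kcnq1, Kcnj5, Kcnn4 and Kcnk5 were among the called genes with few counts. Kcnq1 had 1 to 44 and Kcnj5 3 to 57 counts per library, and Kcnn4 and Kcnk5 reached 10 counts in no saline library (0 of 24). The DESeq2 values of Kcne5 were left out where that tool gave no adjusted p.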

Other observations

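Beside the protein-coding genes, 5 noncoding genes carried a Kcn symbol, and 3 of them entered the test. Kcnq1ot1, the long antisense RNA of the imprinted Kcnq1 locus, fell in the EZ at day 7 (log2 fold change -0.73, SE 0.22, adjusted p = 0.00532), with 18.6, 39, 46.7 and 27.4 CPM in kainate mice and 60.3, 56.8, 55.9 and 45.5 CPM in saline mice, and mouse 26 above the lowest saline mouse. Kcnq1 itself was upregulated there. Kcnmb4os2 had -0.78 (adjusted p = 0.0113) at the same day and region and was not called, and Kcnd3os was not called in any comparison of kainate with saline (0 of 6).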
